A study of Mus musculus with 5 samples.

Results

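ChIP-seq sequences the DNA recovered with an antibody against a protein, and a peak is a stretch of the genome where that DNA piles up. The regions described here are the ZHX1 peaks of 46C-Ctrl cells at which no hnRNPA1 peak was called, hereafter ZHX1-only peaks. A ZHX1 peak was a member when it shared no base with any hnRNPA1 peak of 46C-Ctrl cells or of Zhx1-KO cells. There were 21733 such peaks among 23244 ZHX1 peaks, and the series holds 89451 peaks in all. They were chosen by the measured hnRNPA1 peak positions, so the absence of hnRNPA1 from these regions is the rule and not a result.

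The cells were cardiac progenitors (CPs) obtained by differentiation of 46C, a mouse embryonic stem cell line. Zhx1-KO is the 46C line edited with CRISPR/Cas9 guides near the start and the stop site of Zhx1, and 46C-Ctrl are the control cells. The 5 samples were hnRNPA1 ChIP in Zhx1-KO, ZHX1 ChIP and hnRNPA1 ChIP in 46C-Ctrl, and an input of each line. Each group was 1 library, so no difference between conditions has a replicate check, and the inputs were not analysed here. The lists give positions and a gene name per peak but neither reads nor scores, which leaves the depth of each library unknown.

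ZHX1 belongs to the zinc fingers and homeoboxes family, nuclear proteins that carry zinc fingers together with homeodomains. Proteins of the family can bind NF-YA, a subunit of the factor NF-Y, which recognises CCAAT in promoters. hnRNPA1 is an abundant nuclear protein that binds RNA and steers the choice of splice sites, and it also binds single-stranded telomeric and promoter DNA. The study asked how the pair act together on transcription at the CP stage. ZHX1-only peaks are the places where ZHX1 was detected and its partner was not.

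ZHX1-only peaks were 93.5% of ZHX1 peaks (95% Wilson interval 93.2 to 93.8). Of the other 1511 peaks, 906 overlapped hnRNPA1 in Zhx1-KO alone, 484 in 46C-Ctrl alone and 121 in both lines. All intervals here cover counting error only, since neighbouring peaks and peaks of 1 library are not independent replicates. Set against the 46C-Ctrl hnRNPA1 list alone, 97.4% of ZHX1 peaks were free of hnRNPA1. A longer hnRNPA1 list leaves fewer members, and the Zhx1-KO list held 51545 peaks against 14662 in 46C-Ctrl.

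Some ZHX1-only peaks show what the regions are made of, on the plus strand of GRCm38 and with every CpG in capitals. The first lies in an intron of Etv5, the gene with the most single-copy ZHX1-only peaks among those named for no hnRNPA1 peak. The next is 1 of 2 at Mef2c. It is followed by peaks beside annotated transcript starts of the calcium channel gene Cacna1c, the primitive streak gene Mixl1 and the Nodal-related ligand gene Gdf1. The last 2 come from repeated arrays, the run with the most ZHX1-only peaks and the 5S ribosomal RNA genes.
Etv5 intron, chr16:22433381-22433608: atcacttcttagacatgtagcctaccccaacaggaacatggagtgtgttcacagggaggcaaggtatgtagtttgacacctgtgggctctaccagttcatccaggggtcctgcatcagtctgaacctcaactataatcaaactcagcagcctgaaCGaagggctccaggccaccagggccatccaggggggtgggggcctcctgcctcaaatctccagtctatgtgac
Mef2c upstream, chr13:83274565-83274792: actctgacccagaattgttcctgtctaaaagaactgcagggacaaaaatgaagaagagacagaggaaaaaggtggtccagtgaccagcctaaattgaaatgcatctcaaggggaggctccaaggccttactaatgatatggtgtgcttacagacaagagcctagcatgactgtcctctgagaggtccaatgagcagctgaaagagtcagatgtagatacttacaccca
Cacna1c start, chr6:119108826-119109053: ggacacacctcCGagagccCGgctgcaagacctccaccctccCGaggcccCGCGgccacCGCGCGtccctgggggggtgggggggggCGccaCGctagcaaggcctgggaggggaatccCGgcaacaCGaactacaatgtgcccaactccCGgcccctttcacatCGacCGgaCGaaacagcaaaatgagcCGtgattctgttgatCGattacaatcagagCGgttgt
Mixl1 start, chr1:180697602-180697829: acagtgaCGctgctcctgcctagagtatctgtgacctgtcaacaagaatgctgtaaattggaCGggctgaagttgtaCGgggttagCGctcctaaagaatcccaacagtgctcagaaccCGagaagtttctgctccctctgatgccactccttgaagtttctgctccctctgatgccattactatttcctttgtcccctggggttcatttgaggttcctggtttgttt
Gdf1 start, chr8:70330021-70330248: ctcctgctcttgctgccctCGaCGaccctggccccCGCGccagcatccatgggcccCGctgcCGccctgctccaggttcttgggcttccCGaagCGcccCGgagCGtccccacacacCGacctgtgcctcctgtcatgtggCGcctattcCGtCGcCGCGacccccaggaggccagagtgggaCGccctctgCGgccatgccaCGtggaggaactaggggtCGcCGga
Run on chromosome 9, chr9:3030559-3030787: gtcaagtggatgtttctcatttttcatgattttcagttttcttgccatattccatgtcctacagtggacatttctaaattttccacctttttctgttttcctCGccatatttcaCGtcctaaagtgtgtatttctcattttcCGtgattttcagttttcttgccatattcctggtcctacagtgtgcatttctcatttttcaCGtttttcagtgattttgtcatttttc
5S array, chr8:123586369-123586615: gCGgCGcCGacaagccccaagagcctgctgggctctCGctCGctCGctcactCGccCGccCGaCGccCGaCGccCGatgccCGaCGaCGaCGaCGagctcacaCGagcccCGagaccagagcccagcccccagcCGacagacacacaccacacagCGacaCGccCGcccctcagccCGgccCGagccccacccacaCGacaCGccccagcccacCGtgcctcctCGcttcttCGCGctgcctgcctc
The Etv5 peak holds 1 CpG and the Mef2c peak 0, against 19 at Cacna1c, 5 at Mixl1, 21 at Gdf1, 4 in the run on chromosome 9 and 32 in the 5S array. Their GC contents are 53.9%, 45.6%, 64.5%, 49.1%, 71.1%, 35.4% and 73.7%.

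The edge of the rule is 1 base wide. A total of 6 ZHX1-only peaks touched an hnRNPA1 peak with no base between them, among them peaks named for Lims1, an adaptor of integrin adhesions, Prkar2b, a regulatory subunit of protein kinase A, and Galnt2, which starts O-glycosylation. Just outside the rule, peaks named for Mc2r and Tsnax shared 1 base with hnRNPA1, and those named for Prkcb, Mir6341 and 4930452N14Rik shared 2. The Lims1 peak (a member, CpG in capitals) and the Prkcb peak (not a member, with the 2 shared bases in capitals) stand side by side below.
Lims1 intron, chr10:58345793-58346020: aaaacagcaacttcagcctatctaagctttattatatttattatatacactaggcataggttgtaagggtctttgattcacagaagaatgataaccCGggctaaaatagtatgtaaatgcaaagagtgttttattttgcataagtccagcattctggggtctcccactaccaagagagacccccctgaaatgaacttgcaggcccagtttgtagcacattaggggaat
Prkcb intron, chr7:122447606-122447833: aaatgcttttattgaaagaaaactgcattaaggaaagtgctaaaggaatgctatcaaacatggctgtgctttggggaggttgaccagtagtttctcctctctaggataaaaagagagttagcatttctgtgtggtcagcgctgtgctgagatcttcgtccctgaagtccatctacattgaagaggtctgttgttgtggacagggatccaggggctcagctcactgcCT
Both are 228 bp wide, the smallest width in the ZHX1 list.

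ZHX1-only peaks lay a median of 10.8 kb from the nearest hnRNPA1 peak of either line (95% interval 10.55 to 11.03). For comparison the genome was tiled every 50 kb with windows of 257 bp, the median member width, and tiles that overlapped hnRNPA1 were left out. Those 52219 tiles lay a median of 16.2 kb from hnRNPA1 (16.004 to 16.462). Within 1 kb of an hnRNPA1 peak lay 7.93% of ZHX1-only peaks (7.58 to 8.30) and 4.70% of tiles (4.53 to 4.89). Within 10 kb these shares were 47.8% and 35.9%. The distances use the same lists as the rule and are given as a description. Tiles covered X and Y too, where only 254 and 34 ZHX1-only peaks lay. No comparison with tiles in this report was restricted to the autosomes, so chromosome make-up enters each of them. To the Zhx1-KO list alone the median gap was 14.2 kb for ZHX1-only peaks and 20.6 kb for tiles, and to the shorter 46C-Ctrl list 50.2 kb and 74.8 kb.

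**Figure D1:**
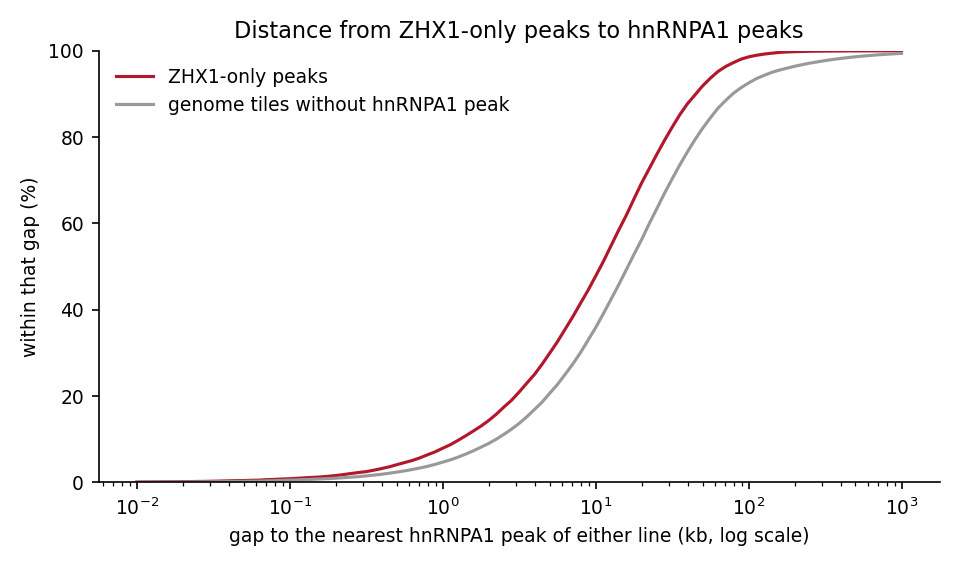
Cumulative share (%) of ZHX1-only peaks (red) and of genome tiles without an hnRNPA1 peak (grey) whose gap to the nearest hnRNPA1 peak of either line is at most the value on the log axis (kb). The red curve lies above the grey one at 1 kb (7.93% against 4.70%) and at 10 kb (47.8% against 35.9%).

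Multi-copy sequence set ZHX1-only peaks apart from the ZHX1 peaks that carried hnRNPA1. A peak was called multi-copy when its 32-base words occurred a median of 2 or more times in the assembly. This held for 4956 ZHX1-only peaks, 22.8% (22.3 to 23.4), against 59.9% (57.4 to 62.3) of ZHX1 peaks with hnRNPA1. The difference was -37.1 percentage points (Newcombe 95% interval -39.6 to -34.5). The 46C-Ctrl hnRNPA1 peaks without ZHX1 stood at 22.7%, so that the difference from ZHX1-only peaks was 0.077 points (-0.82 to 0.96). Zhx1-KO hnRNPA1 peaks without ZHX1 reached 30.8%, and tiles 17.4%. Read the other way, 96.5% of single-copy ZHX1 peaks were ZHX1-only (96.2 to 96.8), but 83.5% of those with 2 to 9 copies and 87.9% of those with 1000 or more. The authors removed reads without a unique position, which limits what can be called in repeated sequence, and its part in these shares was not tested.

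The ZHX1-only peaks were richer in GC and CpG than the genome. Their median GC content was 46.1% (46.1 to 46.3), against 48.7% in ZHX1 peaks with hnRNPA1, 48.3% and 46.6% in Zhx1-KO and 46C-Ctrl hnRNPA1 peaks without ZHX1, and 41.6% in tiles. At least 2 CpG per 100 bp were found in 17.7% of ZHX1-only peaks (17.2 to 18.2), 31.4% of ZHX1 peaks with hnRNPA1 (29.1 to 33.8) and 6.69% of tiles (6.48 to 6.91). Of 2080 words of 6 bases counted on both strands, the 50 most over-represented relative to tiles all held a CpG, and CCGCGC led with 1.85% of ZHX1-only peaks against 0.444% of tiles. The least represented was TATATA, in 4.59% against 9.46%.

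CCAAT, the NF-Y site, was less frequent under ZHX1-only peaks than in tiles and did not differ beyond its interval from ZHX1 peaks with hnRNPA1. It was found on either strand of the central 200 bp in 27.3% of ZHX1-only peaks (26.7 to 27.9), 28.7% of ZHX1 peaks with hnRNPA1 and 29.3% of tiles (28.96 to 29.74). The difference from ZHX1 peaks with hnRNPA1 was -1.39 points (-3.79 to 0.91), and from tiles -2.08 points (-2.79 to -1.37). In hnRNPA1 peaks without ZHX1, CCAAT stood at 27.3% in the control cells and 28.3% in Zhx1-KO, also below tiles. ZHX1-only peaks differed from these by -0.055 points (-1.003 to 0.89) and -1.05 points (-1.76 to -0.34). A CCAAT share below that of tiles was therefore not particular to ZHX1-only peaks. TAGGG, the core of the RNA motif bound by hnRNPA1 written as DNA, stood at 25.7% in ZHX1-only peaks and 24.6% in ZHX1 peaks with hnRNPA1, a difference of 1.12 points (-1.18 to 3.31). GATAA, the letters of a GATA factor site, was found in 24.3% of ZHX1-only peaks and 31.3% of tiles. The E-box letters CANNTG, bound by basic helix-loop-helix factors, occurred in 67.8% of ZHX1-only peaks and 65.4% of tiles. In hnRNPA1 peaks without ZHX1, GATAA stood at 24.6% in the control cells and 21.6% in Zhx1-KO, and CANNTG at 68.0% and 69.0%. For both words these sets differed from tiles in the same direction as ZHX1-only peaks. These matches are letters in a window and not binding sites, and GC content differs between the sets.

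**Figure D2:**
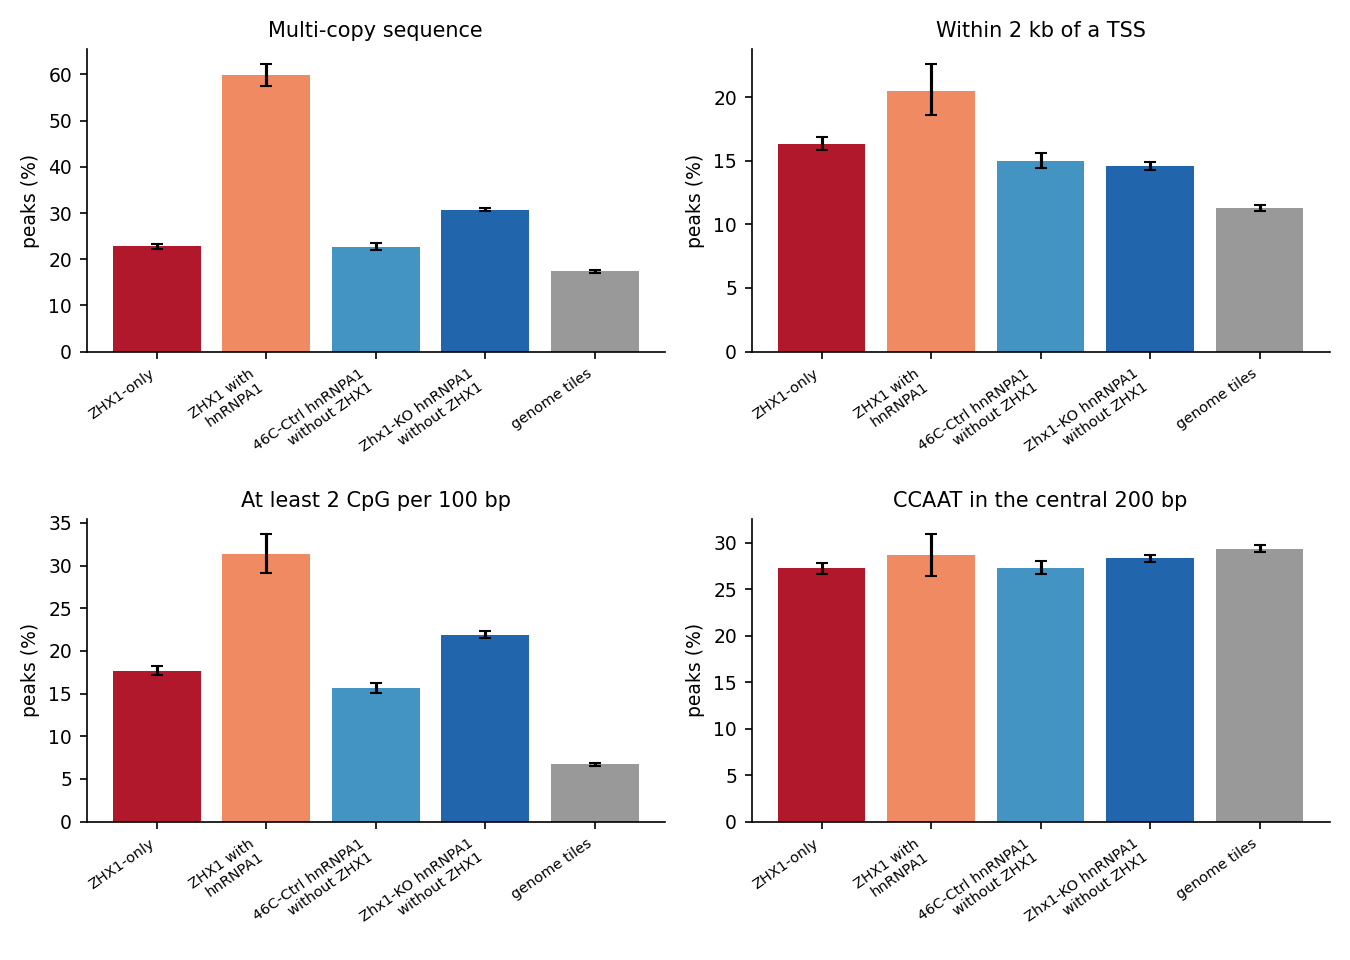
Share of peaks (%) in multi-copy sequence, within 2 kb of a TSS, with at least 2 CpG per 100 bp and with CCAAT in the central 200 bp, for ZHX1-only peaks, ZHX1 peaks with hnRNPA1, hnRNPA1 peaks of each line without ZHX1, and genome tiles. Bars are shares and error bars 95% Wilson intervals; ZHX1-only peaks stand at 22.8% multi-copy against 59.9% for ZHX1 peaks with hnRNPA1.

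Most ZHX1-only peaks were far from promoters. By GENCODE annotation 48.2% were centred in intergenic sequence, 43.4% in introns, 3.29% in coding sequence, 2.29% in UTRs and 2.77% in exons of noncoding transcripts. A transcription start site (TSS) was the start of any annotated transcript, so it can lie inside a gene. A total of 3551 ZHX1-only peaks were centred within 2 kb of a TSS, 16.3% (15.9 to 16.8). The share was 20.5% for ZHX1 peaks with hnRNPA1, a difference of -4.18 points (-6.34 to -2.15), and 11.3% for tiles, a difference of 5.06 points (4.50 to 5.62). For hnRNPA1 peaks without ZHX1 it was 14.6% in Zhx1-KO and 15.002% in 46C-Ctrl. The median distance to the nearest TSS was 11.9 kb for ZHX1-only peaks, 9.13 kb for ZHX1 peaks with hnRNPA1 and 16.4 kb for tiles. The RefSeq windows around gene starts were hit by a ZHX1-only peak in 352 of 32851 cases. CCAAT was found in 34.9% of these 352 promoters (30.1 to 40.1) and in 37.4% of all.

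The widest ZHX1-only peak by far covered the 45S ribosomal RNA precursor gene Rn45s (chromosome 17, 39843083 to 39846348), at 3266 bp and a GC content of 69.1%. At 1 copy it was classed as single-copy, but the measure sees only copies present in the assembly. No other member exceeded 1227 bp, the width of a coding peak beside the Tulp4 start site on the same chromosome. ZHX1-only peaks had a median width of 257 bp (256 to 258), against 284 bp (280 to 291) for ZHX1 peaks with hnRNPA1. The smallest width, 228 bp, was shared by 8129 members (37.4%), and 620 members (2.85%) reached 500 bp. The share of ZHX1 peaks that were ZHX1-only was highest at 228 bp, 96.1% (95.7 to 96.5), between 90.4% and 93.0% in the widths between, and lowest at 500 bp or more, 86.0% (83.3 to 88.3). A wider peak has more bases with which to meet an hnRNPA1 peak, so width is part of the rule. Among the 10 widest, Mllt3, Grik1 and Lsamp lay in sequence with 2710, 2784 and 641 copies. Acte1 and Gm10248, at 890 and 859 bp, were single-copy.

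The 10 widest ZHX1-only peaks near protein-coding start sites measured 644 to 1227 bp. The 684-bp peak at Smad6, an inhibitory Smad that restrains BMP signals, lay 0.499 kb from the start site in UTR (chromosome 9, 64021191 to 64021874) and 23.7 kb from any hnRNPA1 peak. Cxadr, a junctional adhesion protein needed in the developing heart, had a 707-bp peak in an intron 1.45 kb from a start site (chromosome 16, 78327220 to 78327926), 27.5 kb from hnRNPA1. Kcna7, a voltage-gated potassium channel gene, had an 850-bp peak in UTR (chromosome 7, 45405760 to 45406609) that ended 3 bp from an hnRNPA1 peak. The others were at Marcksl1, Gpc1, Vdac1, Tanc2, Ifitm1, Kars and Tulp4. All but the Tulp4 peak, with 3 copies, were single-copy.

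The gene names in the list spread the ZHX1-only peaks thinly. They named 10588 genes, of which 5800 (54.8%) had 1 ZHX1-only peak, 2350 had 2, 1060 had 3, 1275 had 4 to 9 and 103 had 10 or more. A name is not a position at the gene. For the 21039 peaks whose name has a GENCODE TSS on the same chromosome, the median distance to that gene's nearest TSS was 29.2 kb (28.3 to 30.2). Only 10.1% were within 2 kb of it, and 25.1% were over 100 kb away.

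Several of the 10 genes with the most ZHX1-only peaks had most of them in multi-copy sequence. 5730507C01Rik had 45, spread over 1469 kb of chromosome 12, of which 38 were multi-copy and 0 lay in the gene itself. 1700030C10Rik had 36 over the adjoining 1251 kb, 34 of them multi-copy. Gm10377 had 19, with 18 multi-copy, and Gm20268 had 16, with 11 multi-copy. Celf2, an RNA-binding regulator of splicing, had 19, of which 10 lay in the gene and 7 were multi-copy. Lrrc4c, a neuronal adhesion gene, had 18 over 3297 kb with 7 in the gene. Hnf4g, a nuclear receptor gene, had 15 with 0 in the gene. The other 3 were Olfr161 and B3galt2, with 16 each, and Mir6388, with 15. All 10 names also stood in both hnRNPA1 lists.

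Most genes named for ZHX1-only peaks also had an hnRNPA1 peak named elsewhere. The name of 19694 of 21676 named ZHX1-only peaks (90.9%, 90.5 to 91.2) stood in at least 1 hnRNPA1 list. It stood in the Zhx1-KO list for 87.7% and in the 46C-Ctrl list for 64.3%. A gene counted as shared by name can therefore have no position in common.

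Of the 10872 genes named in the ZHX1 list, 1619 (14.9%) were named in neither hnRNPA1 list, and they accounted for 1982 ZHX1-only peaks. The one with the most was Gm25018, a 5S ribosomal RNA gene, with 13. Its other 3 ZHX1 peaks overlapped hnRNPA1 peaks named for other genes, and the nearest hnRNPA1 peak lay 0.294 kb from its start. Etv5, an ETS transcription factor gene induced by FGF signalling, came next with 6. They measured 228 to 249 bp and were single-copy, with 5 in its introns and 1 upstream (chromosome 16, 22385787 to 22461475). The nearest hnRNPA1 peak was 14.6 to 90.1 kb from each. Other genes with 4 each were Lbx1, a homeobox gene of migrating muscle precursors, and Ephb1, a receptor of ephrin ligands. Mical2, an actin-oxidising enzyme that promotes SRF-dependent transcription, and Enc1, an actin-binding kelch protein, also had 4. So did Alkbh4, Dennd4a, Piwil1 and Tor1aip2.

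Several of these genes had a ZHX1-only peak at a start site. The Ephb1 peak (chromosome 9, 102354100 to 102354415) was centred 0.435 kb from the TSS with a GC content of 69.6%, and 70.6 kb from hnRNPA1. The Mical2 peak (chromosome 7, 112226015 to 112226242) was centred 0.239 kb from the TSS with 64.5% GC, and 53.0 kb from hnRNPA1. The Alkbh4 peak (chromosome 5, 136138845 to 136139072) was 0.178 kb from an internal TSS, in UTR and 2.81 kb inside the gene from its annotated start. It had 54.8% GC and lay 6.45 kb from hnRNPA1. Within 150 kb of their starts, Etv5 had 8 ZHX1-only peaks with 6 Zhx1-KO and 0 46C-Ctrl hnRNPA1 peaks, and Piwil1 had 5 with 1 and 0. Alkbh4 had 10 with 11 and 5, all of the hnRNPA1 peaks being named for other genes.

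**Figure D3:**
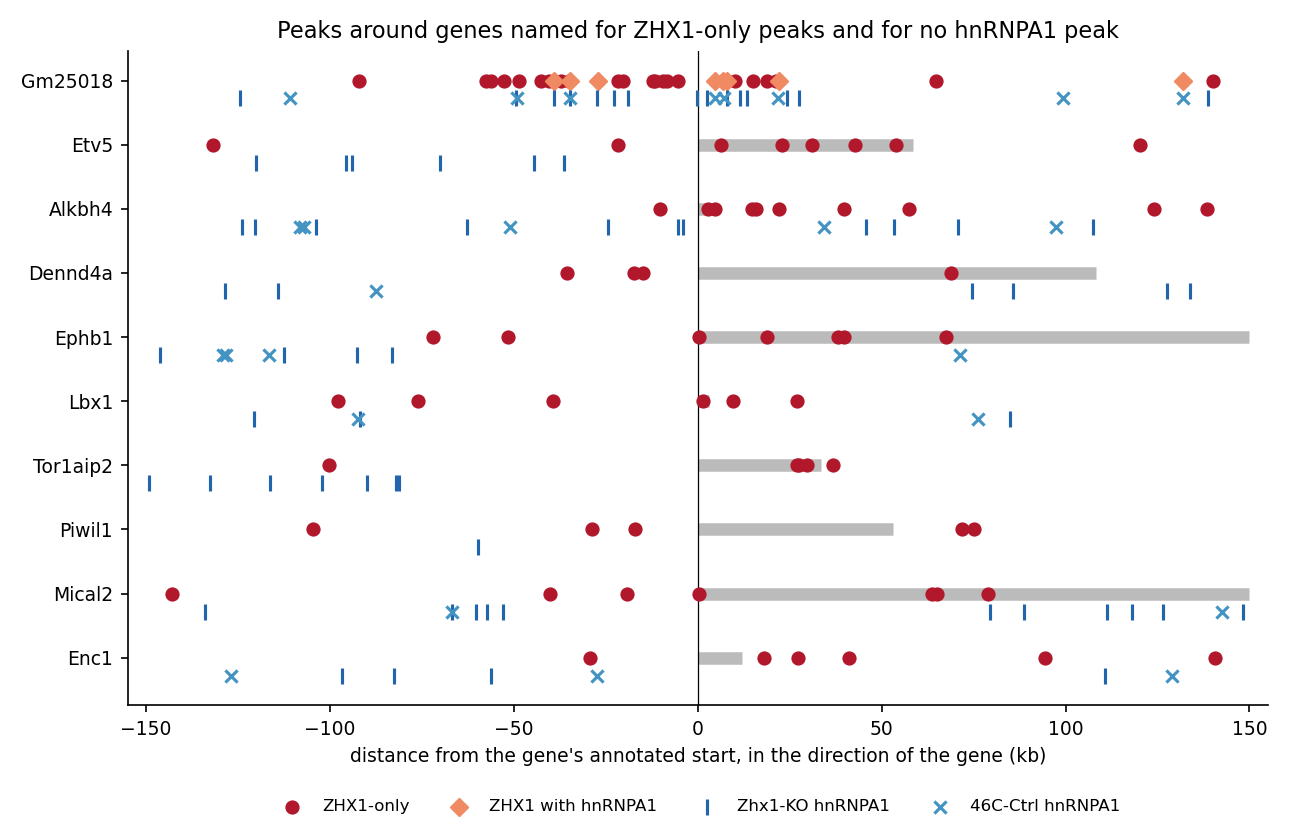
Peaks within 150 kb of the annotated start (vertical line, distance in kb along the gene) of the 10 genes with the most ZHX1-only peaks among those named for no hnRNPA1 peak. Grey bars are gene bodies cut at 150 kb, red points ZHX1-only peaks, orange diamonds ZHX1 peaks with hnRNPA1, dark ticks Zhx1-KO hnRNPA1 and light crosses 46C-Ctrl hnRNPA1; at Etv5 the 5 intronic ZHX1-only peaks have no hnRNPA1 peak inside the gene.

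Of 5 genes taken from the study, Zhx1, Hnrnpa1, Mef2c, Src and Epas1, 4 had ZHX1-only peaks. By ChIP at promoters the paper reports ZHX1 enriched at Mef2c and Src but not Epas1. The peaks below are those named for a gene and are not limited to promoters. Zhx1 itself had 1, in its intron (chromosome 15, 58056874 to 58057324). Hnrnpa1 had 0 peaks in any of the 3 lists, by name. Mef2c, a MADS-box factor of heart and muscle, had 2 of its 3 ZHX1 peaks free of hnRNPA1. One lay 229 kb from a Mef2c start site and 2.14 kb from an hnRNPA1 peak, and the other lay in an intron 12.4 kb from a start site (chromosome 13, 83559867 to 83560094) and 55.9 kb from hnRNPA1. Src, a non-receptor tyrosine kinase gene, had 3 of 3, at 5.01, 8.998 and 11.4 kb from a start site and within 4.74 kb of hnRNPA1. Epas1, which encodes a hypoxia-inducible factor, had 4 of 4, of which 3 were 70.9 to 118 kb from its TSS and 1 lay in coding sequence, 0.525 kb from an internal TSS (chromosome 17, 86823694 to 86823921).

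Cardiac progenitor regulators carried ZHX1-only peaks at close to the share of all ZHX1 peaks. Of their 65 ZHX1 peaks 61 were ZHX1-only (93.8%, 85.2 to 97.6), beside 93.5% over the whole list, and 22 of 36 genes had at least 1. All 22 were also named in the Zhx1-KO hnRNPA1 list and 11 in the 46C-Ctrl one, beside 79.9% and 50.7% of all genes named for ZHX1-only peaks. As background to the gene counts of this and the other lists, ZHX1-only peaks named 10588 genes. They overlapped 5960 of 21951 annotated protein-coding genes. The number of genes that could have been named is unknown, so a count of genes on a list is a description only. The genes named first for each list were chosen after their values were seen. Casz1, a zinc finger factor of heart development, had 7 of 7. Nkx2-5, a homeobox factor of the heart, and the ligand genes Fgf10 and Wnt11 had 5 of 5 each. At the start sites, Nkx2-5 had a 409-bp peak (chromosome 17, 26839893 to 26840301), 1.47 kb from the TSS and 2.62 kb from hnRNPA1. Bmp4 had one (chromosome 14, 46388923 to 46389168) 1.49 kb from the TSS, and Fgf10 one 1.69 kb from it that the list names for Gm10732. Gata4, Tbx5 and Tbx20 had 1 ZHX1-only peak each, and none of the 3 was at a promoter.

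Genes of contraction and calcium handling had 37 of 41 (90.2%, 77.5 to 96.1), on 15 of 30 genes. Myom2, of the sarcomere M-band, had 6 of 7, Nebl, a Z-disc gene, 5 of 6, and Casq2, the calcium store of the sarcoplasmic reticulum, and Cacna1c had 4 of 4. The Cacna1c peak printed above lay 0.367 kb from a TSS and 0.480 kb from hnRNPA1. The Myom2 peak (chromosome 8, 15060205 to 15060432) was 0.129 kb from a TSS. A peak that the list names for Cmtm5 lay 1.93 kb from a transcript start annotated for Myh6, the alpha myosin heavy chain gene. That start need not be the gene's main one. The peak lay in an intron, 2.11 kb from hnRNPA1, and is not among the 37. Smooth muscle genes had 16 of 16 (80.6 to 100), on 7 of 15 genes. Both intervals hold the 93.5% of all ZHX1 peaks.

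Signalling genes did not stand apart from the whole ZHX1 list. ZHX1-only peaks were 55 of 56 in the Wnt pathway (98.2%, 90.6 to 99.7), on 23 of 39 genes. They were 44 of 45 for FGF and Notch (97.8%, 88.4 to 99.6), on 22 of 32 genes. For TGF-beta, BMP and Nodal they were 63 of 67 (94.0%, 85.6 to 97.7), on 22 of 39 genes. Each interval holds 93.5%. In the Wnt list Wnt11, Fzd8 and Lef1, which are a ligand, a receptor and a nuclear effector, had 5 of 5 each, and Wnt3a had a peak 0.874 kb from its TSS (chromosome 11, 59289764 to 59289991). In the TGF-beta list the activin receptor gene Acvr2a had 14 of 17 and Smad6 had 6 of 6. Nodal, the ligand that patterns mesoderm and endoderm, had 3 of 3 and no named hnRNPA1 peak in either line. Its promoter peak (chromosome 10, 61418545 to 61418772) lay 0.687 kb from a TSS and 50.5 kb from hnRNPA1. In the FGF list 2 peaks lay near transcript starts annotated for Fgfr1 (chromosome 8, 25518843 to 25519070 and 25569254 to 25569545). They were 45.1 and 48.2 kb from hnRNPA1. The second lay in an intron, and the list names it for Gm16159.

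Genes of other lineages and chromatin regulators carried ZHX1-only peaks as well, each list with an interval that holds 93.5%. Neural factors had 47 of 52 (90.4%, 79.4 to 95.8) on 17 of 20 genes. Endothelial genes had 32 of 34 (80.9 to 98.4) on 15 of 20 genes, with Cdh5, the endothelial cadherin, at 6 of 6 and a pair of peaks in the coding sequence of Sox18. Endoderm genes had 33 of 34 (85.1 to 99.5), led by Prdm1 with 8 of 8 and Cxcr4 with 6 of 6. Pluripotency genes had 25 of 25 (86.7 to 100) and primitive streak genes 15 of 18 (60.8 to 94.2), with a pair of peaks 0.289 and 0.682 kb from the Mixl1 TSS. Chromatin regulators had 37 of 38 (86.5 to 99.5). The Polycomb genes Ezh2 and Jarid2 had ZHX1-only peaks 0.743 and 0.212 kb from a TSS.

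Each of the 7 Zhx and NF-Y genes had a ZHX1-only peak, 10 of 10 ZHX1 peaks in all (72.2 to 100, which holds 93.5%). Zhx2 had 3, one of them 0.325 kb from its TSS (chromosome 15, 57695197 to 57695611). Nfya and Nfyc, which encode 2 of the NF-Y subunits, had 1 each at 1.07 and 1.76 kb from a TSS. Homez and Nfyc were named in neither hnRNPA1 list, as were 15.3% of the 10588 genes named for ZHX1-only peaks. A list of genes that the study's text mentions had 30 of 30 (88.6 to 100), with 7 of them at Ywhaq, but it was drawn from the study and is not independent of it. The 14 lists of single genes together had 464 of 490 (94.7%, 92.3 to 96.4).

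Receptor and zinc finger genes, listed by symbol, stood lower. Olfactory and vomeronasal receptor names had 514 of 583 (88.2%, 85.3 to 90.5), and 271 of the 514 (52.7%) were multi-copy. Zinc finger genes named Zfp had 296 of 330 (89.7%, 85.9 to 92.5), of which 31.4% were multi-copy. Both upper bounds lie under 93.5%. Over all multi-copy ZHX1 peaks the share was also lower, from 81.8% at 10 to 99 copies to 87.9% at 1000 or more. The part of copy number in the shares of these lists was not tested. MicroRNA names had 747 of 794 (94.1%, 92.2 to 95.5), but only 11 ZHX1-only peaks overlapped an annotated microRNA gene itself.

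ZHX1-only peaks were spaced a median of 67.2 kb from the next one (65.8 to 68.9), and 4452 (20.5%, 19.95 to 21.03) had another within 10 kb. Joined at gaps of up to 10 kb, they formed 17281 single peaks, 1765 pairs, 230 runs of 3 and 49 runs of 4 or more. Peaks with a neighbour were multi-copy in 27.7% of cases (26.40 to 29.03) and those without in 21.5% (20.9 to 22.2). The largest run held 14 peaks in 33.6 kb at the start of the assembled chromosome 9 (3004570 to 3038172), all named for Mir101c and all multi-copy, with 0 hnRNPA1 peaks of either line inside it. Of the 5 largest runs, the smallest held 6 peaks each, at Pisd-ps1 on chromosome 11 and at the prolactin family genes Prl2c2 and Prl2c3 on chromosome 13.

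The next 2 runs, of 8 and 7 peaks, both lay at the 5S ribosomal RNA array on chromosome 8, which was examined as a whole after these values were seen. The array holds 51 annotated 5S genes in 85.0 kb (123538786 to 123623745), and 5S RNA is the ribosomal RNA made by RNA polymerase III. It held 19 ZHX1-only peaks and 7 ZHX1 peaks with hnRNPA1, beside 12 Zhx1-KO and 5 46C-Ctrl hnRNPA1 peaks. The ZHX1-only peaks measured 247 to 695 bp with GC contents of 51.6% to 73.9% and 46 to 51 copies. Only 5 overlapped a 5S gene, and the others lay between them. Of the 19, the list names 13 for Gm25018 and 4 for Rhou.

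Chromosome 11 was the densest of the nuclear chromosomes, and X the sparsest other than Y. Chromosome 11 had 14.2 ZHX1-only peaks per Mb (13.5 to 14.9), against 8.68 on the other autosomes together, a ratio of 1.64 (1.56 to 1.72). The other autosomes ran from 7.24 on chromosome 3 to 10.2 on chromosome 17. Per protein-coding gene the ratio was 0.998. Peaks per gene varied among the autosomes, from 0.664 on chromosome 7 to 1.75 on chromosome 12, with 1.03 on chromosome 11. The part of gene density was not tested. On every autosome between 88.3% (chromosome 14) and 96.7% (chromosome 19) of ZHX1 peaks were ZHX1-only, but 83.01% on X and 58.6% on Y.

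On X nearly all ZHX1-only peaks lay in repeated sequence. Of 254 there, 94.5% were multi-copy, against 10.7% to 39.3% on the autosomes. The 14 single-copy ones amounted to 0.121 per Mb of single-copy sequence (0.066 to 0.203), against 7.78 on the autosomes other than 11, a ratio of 0.0156 (0.0092 to 0.0263). The hnRNPA1 lists were also low there, with 21 single-copy X peaks in Zhx1-KO (ratio 0.0114) and 5 in 46C-Ctrl (ratio 0.00858). Chromosome 11 was high in all 3 lists on this scale, at 1.78-fold for ZHX1-only peaks, 2.43-fold for Zhx1-KO hnRNPA1 and 2.15-fold for 46C-Ctrl hnRNPA1. A pattern over chromosomes that the 3 libraries share is not particular to ZHX1-only peaks, and what sets it was not tested.

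**Figure D4:**
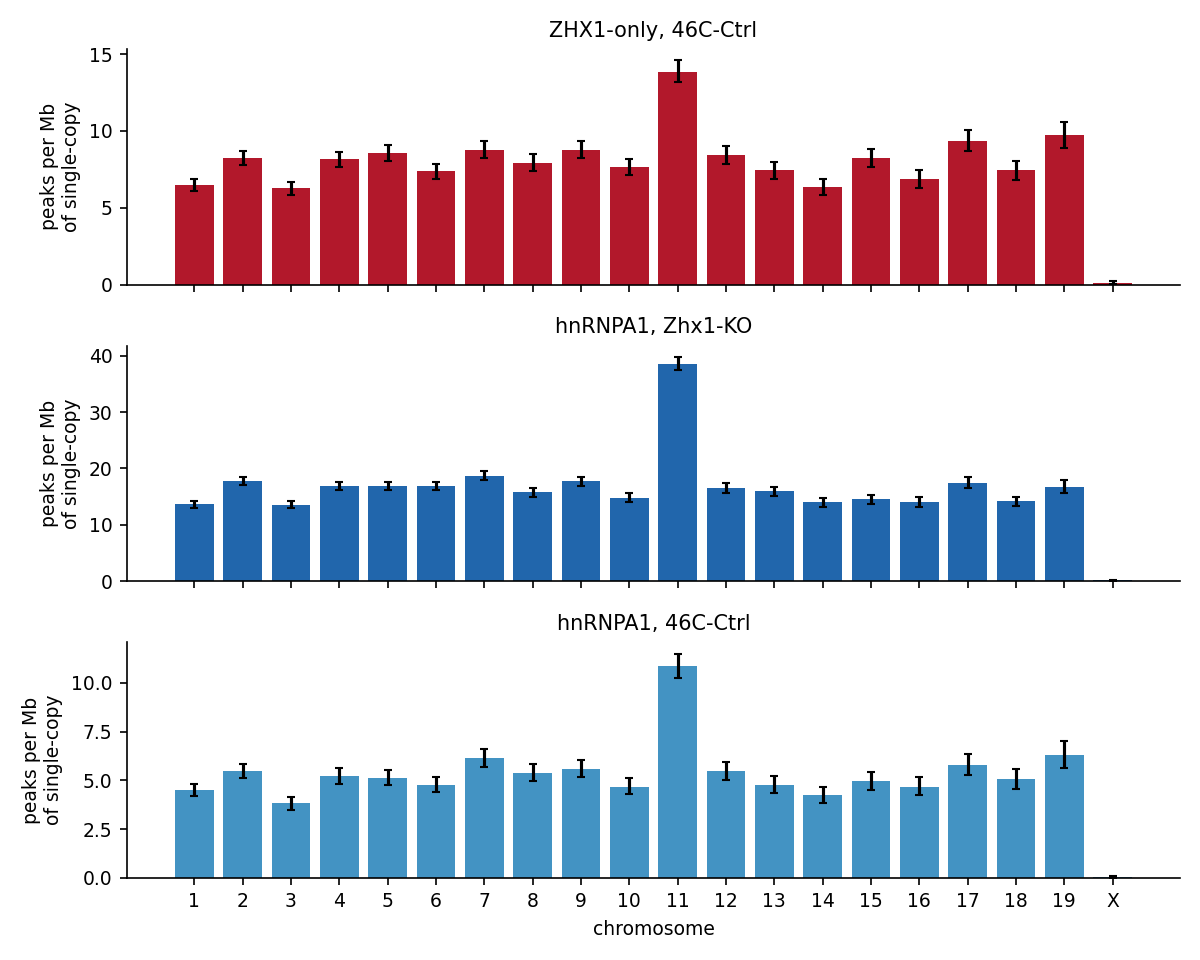
Single-copy peaks per Mb of single-copy sequence on each chromosome (Y left out) for ZHX1-only peaks and for the hnRNPA1 peaks of each line, with exact Poisson 95% intervals. Chromosome 11 stands highest in each panel, at 13.9, 38.6 and 10.9 peaks per Mb for ZHX1-only, Zhx1-KO hnRNPA1 and 46C-Ctrl hnRNPA1, and X holds 14, 21 and 5 peaks.

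The share of ZHX1-only peaks changed along the deposited list. Cut into 20 equal blocks, the opening block (rows 1 to 1163) was 76.3% ZHX1-only (73.7 to 78.6), against 94.4% (94.1 to 94.7) in all later rows and 88.4% to 96.99% in each later block. Of the top 100 rows 39 were ZHX1-only, and 34 of those 39 were multi-copy. Among single-copy peaks the opening block stood at 88.3% (85.2 to 90.9) and the later blocks at 94.7% to 97.8%. Among multi-copy peaks it stood at 67.5% (63.9 to 70.9) and the later ones at 79.7% to 93.4%. What the rows are ordered by is not given in the sources used here. These values were examined after the order was noticed.

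**Figure D5:**
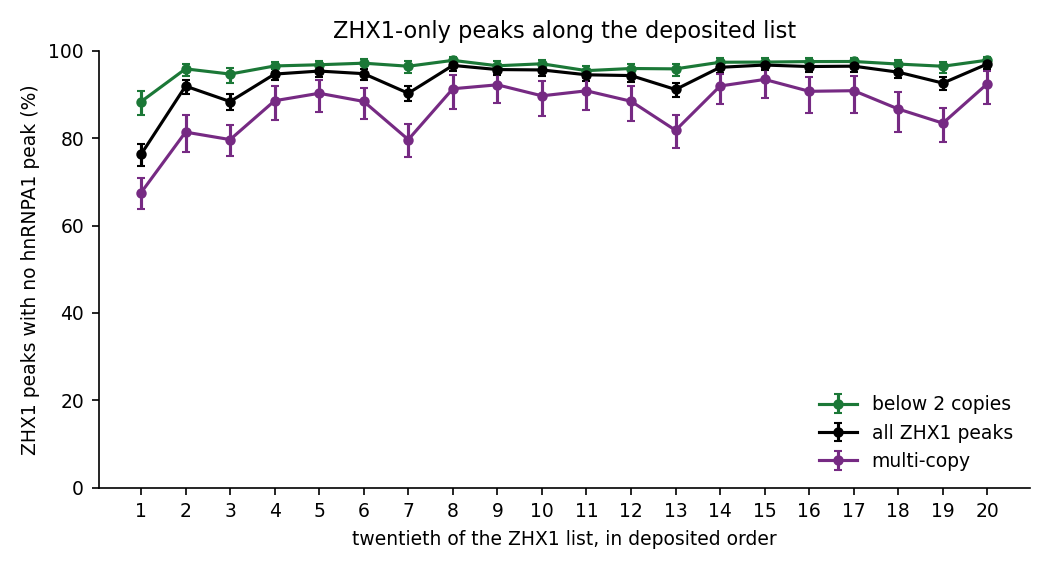
Share of ZHX1 peaks with no hnRNPA1 peak (%) in 20 consecutive blocks of the ZHX1 list in its deposited order, for peaks below 2 copies, all peaks and multi-copy peaks, with 95% Wilson intervals. The opening block is the lowest of each curve, at 88.3%, 76.3% and 67.5%.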

How the data were processed

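ChIP-seq libraries of CP cells from 46C-Ctrl and Zhx1-KO were analysed from the 3 deposited peak lists, 1 library each. Before deposit the authors used cutadapt 1.18 for trimming, kept reads of 50 bases or more, aligned them to GRCm38 with Bowtie2 2.3.5.1 and removed duplicates and reads without a unique position. BWA 0.7.12-r1039 and deepTools 3.3.0 are further tools in the submitters' processing notes. For the peak caller, its threshold and the inputs, details were not given in the sources used here. A deposited list has start, end, gene name and a strand mark with no count, score or p-value.

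Positions are 1-based on GRCm38. Membership required 0 shared bases. Places and TSS came from GENCODE M21, whose distances were taken from peak centres. Copy number was the median count of each 32-base word of a peak, on either strand of the main chromosomes. Motifs were searched as letters on both strands, and promoter windows were RefSeq's. Shares have Wilson 95% intervals, differences of shares Newcombe intervals, medians order-statistic intervals and counts exact Poisson intervals. With 1 library per group no test was run. The 67 ZHX1 peaks without a name stayed out of gene counts. The members and lists were chosen with earlier results of these data known.

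Named genes were 5 taken from the study, the 10 with most ZHX1-only peaks, and the 10 with most among those named for no hnRNPA1 peak. Also named were the 10 widest peaks overall and at promoters, the 5 largest runs and the 5 peaks on either side of the rule. Up to 4 promoter genes were named per list. Other genes were named after their values were seen, as were the leading genes of each list. Sequences shown are the narrowest peak of each pick. The work ran in Python 3.11.15 with matplotlib 3.10.9 for plots, scipy 1.17.1 for intervals, numba 0.67.0 for word counts, and pandas 2.3.3 and numpy 2.4.6 for tables, and the interval, copy number and motif steps were tested on simulated data.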

Additional observations from a re-analysis of the deposited data

How the results depend on the processing

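The share of ZHX1 peaks that were ZHX1-only stayed between 86.1% and 97.4%. It was 95.4% when hnRNPA1 had to cover at least 50% of the peak, 89.7% and 86.1% with hnRNPA1 peaks widened by 500 bp and 1 kb, 91.8% for peaks of 300 bp or wider, 96.5% below 2 copies, 97.4% and 95.6% against the 46C-Ctrl or Zhx1-KO list alone, and 94.4% without the opening block of the list. The promoter share was 10.4% within 1 kb, 30.01% within 5 kb, 11.2% for protein-coding TSS, 17.3% at 300 bp or wider and 18.4% below 2 copies. The multi-copy share was 18.3% at 5 copies or more, 33.7% by the mean, 21.3% with hnRNPA1 widened, 24.2% at 300 bp or wider, 23.8% without chromosome 11, 21.6% without the opening block and 21.8% without X, Y and M. Median width was 255 bp below 2 copies, and median GC 46.0% in the central 200 bp and 46.8% below 2 copies. The share with a neighbour was 11.7% within 5 kb, 35.4% within 20 kb, 19.8% without chromosome 11, 9.18% at 300 bp or wider and 17.3% below 2 copies. The chromosome 11 ratio was 1.74 at 300 bp or wider, 1.89 below 2 copies, 0.998 per protein-coding gene and 1.78 per single-copy Mb. The share of members whose gene is also named for hnRNPA1 was 82.1% with genes from the annotation, 64.3% against 46C-Ctrl alone and 90.3% at 300 bp or wider. CCAAT was found in 36.2% of whole peaks and in 24.8% of central windows below 2 copies. The other 11 of 48 alternatives stayed within the interval of the value reported, and where a value moved the cause was not tested. The settings without the opening block, without X, Y and M, and per single-copy Mb were chosen after seeing the data.

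No paired analysis was possible because each group is 1 library. Without reads or a score, the strength of a peak and the depth that limits its detection are unknown, and absence of an hnRNPA1 peak does not show absence of hnRNPA1.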

Other observations

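Some ZHX1-only peaks lay outside the nuclear genome. Of 4 ZHX1 peaks on mitochondrial DNA 3 were ZHX1-only, at 4823 to 5303 in noncoding exons, and at 12507 to 12821 and 14891 to 15253 in the coding sequence of mt-Nd5 and mt-Cytb. The Zhx1-KO hnRNPA1 list had 1 mitochondrial peak and the 46C-Ctrl list 0.

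ZHX1-only peaks overlapped 8 of 1507 annotated snoRNA genes, 3 of 1383 snRNA genes and 5 of 354 rRNA genes. For protein-coding genes the count was 5960 of 21951. In the same order of gene types, Zhx1-KO hnRNPA1 peaks overlapped 13, 5, 2 and 9289 genes. The hnRNPA1 peaks of the control cells overlapped 4, 4, 2 and 4487. The lists differ in length, so these counts are a description only and do not set ZHX1-only peaks apart. Simple repeats of 24 bp or more occurred in 4.13% of ZHX1-only peaks (3.88 to 4.40), against 3.64% of ZHX1 peaks with hnRNPA1 and 6.32% of tiles (6.11 to 6.53). Among words without a CpG, GGGCCC was the most over-represented, in 4.20% of ZHX1-only peaks against 2.65% of tiles.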
